A study of Arabidopsis thaliana with 26 samples.

Results

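Gibberellin receptor and signalling genes were followed in Arabidopsis seedlings given 12 brassinosteroids or their precursors. The 6 genes were chosen by locus: the receptor genes GID1A (AT3G05120), GID1B (AT3G63010) and GID1C (AT5G27320), the F-box genes SLY1 (AT4G24210) and SLY2 (AT5G48170), and SPY (AT3G11540). Each had exactly 1 probe set naming it alone on the ATH1 array, so 6 of 22746 non-control probe sets are described here, all of them among the 17606 bright enough to be tested.

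Gibberellins are growth hormones that act by removing repressors called DELLA proteins. The GID1 proteins are soluble receptors that bind the hormone and then the DELLA protein. SLY1 is the F-box subunit of a ubiquitin ligase that marks the bound DELLA for destruction, and SLY2, also called SNEEZY, is its homologue. SPY modifies DELLA and other proteins with a sugar and restrains gibberellin signalling. Brassinosteroids are steroid growth hormones that act through BZR1 and its homologues, transcription factors to which DELLA proteins bind, and both hormones promote elongation of seedlings.

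All seedlings were 7 days old, in the Col background, of a stock labelled N6159 with no genotype stated, described as de-etiolated and taken as whole plants after 3 h. Brassinolide was given at 10 nM, castasterone at 100 nM and campestanol at 10 µM. The 9 others, each at 1 µM, were 6-deoxocastasterone, typhasterol, 6-deoxotyphasterol, 3-dehydroteasterone, 3-dehydro-6-deoxoteasterone, teasterone, 6-deoxoteasterone, cathasterone and 6-deoxocathasterone. With mock this made 13 groups, each with 2 arrays lettered A and B. The labels do not state that the 2 letters come from separate cultures. The p-values therefore reflect the variation among arrays alone, and that variation may be technical.

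Genes that check the treatment were read first. They were chosen with earlier results of these data known, so their calls are not an independent check. EXO, a brassinosteroid-induced gene of cell expansion, was called higher than in mock for 9 of the 12 compounds (intensities 134.5 to 1897 over the 26 arrays), and AT5G01740 was called lower for 9. Of the other check genes, EXPA8 was called higher for 8 compounds, XTH33 for 7 and XTH19 for 5. These calls did not follow the order of the pathway throughout. XTH33 was called after 3-dehydro-6-deoxoteasterone but not after its product 6-deoxotyphasterol (adjusted p 0.00573 and 0.0572 in limma). The compounds with no call of EXO or AT5G01740 were cathasterone, 6-deoxocathasterone and campestanol, for which 0 of all tested probe sets were called. Their estimates were unlike. On the log2 scale AT5G01740 and EXO changed by -2.20 and 1.64 after cathasterone (adjusted p 0.0563 and 0.0817 in limma). The changes were -1.50 and 1.17 after 6-deoxocathasterone, and 0.31 and 0.26 after campestanol. Among listed organ markers, 1 of 8 shoot genes, 3 of 8 root genes and 0 of 5 seed genes had a probe set naming them alone. The shoot gene LHCB4.2 (1179 to 2333) and the root genes PYK10 (1164 to 2357), EXPA7 (106.0 to 240.5) and AT5G17820 (522.4 to 1087) were called for no compound. The correlation between the 2 arrays of a group lay between 0.948 and 0.975 across probe sets. Arrays of the same letter from different groups had a median correlation of 0.973, near the top of that range. Because whole seedlings were used, fewer cells of a type and less RNA per cell cannot be told apart.

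None of the 6 genes was called changed by any compound. Over 12 compounds and 6 genes, 0 of 72 changes against mock passed an adjusted p of 0.05 in limma's moderated test, and 2 passed an unadjusted p of 0.05. The estimates lay between -0.31 and 0.63 on the log2 scale. Over all tested probe sets 6.26% of the same 12 comparisons passed the unadjusted threshold. The adjusted threshold called 2.58% of tested probe sets after brassinolide, 2.38% after castasterone, 1.95% after 6-deoxocastasterone and 1.77% after typhasterol. It called 0.193% after 6-deoxotyphasterol, 1.42% after 3-dehydroteasterone, 0.557% after 3-dehydro-6-deoxoteasterone, 0.352% after teasterone and 0.165% after 6-deoxoteasterone. After cathasterone, 6-deoxocathasterone and campestanol it called 0%. A share of 0 of 6 genes is near this background for each compound.

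The moderated F test asks whether a gene differs anywhere among the 13 groups, without leaning on mock. It called 2.15% of tested probe sets and 0 of the 6 genes. The unadjusted p was lowest for SLY2, at 0.191, and was 0.335 for GID1B, 0.639 for SPY, 0.824 for GID1C, 0.963 for GID1A and 0.975 for SLY1. All 6 adjusted p-values were 1.

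**Figure D1:**
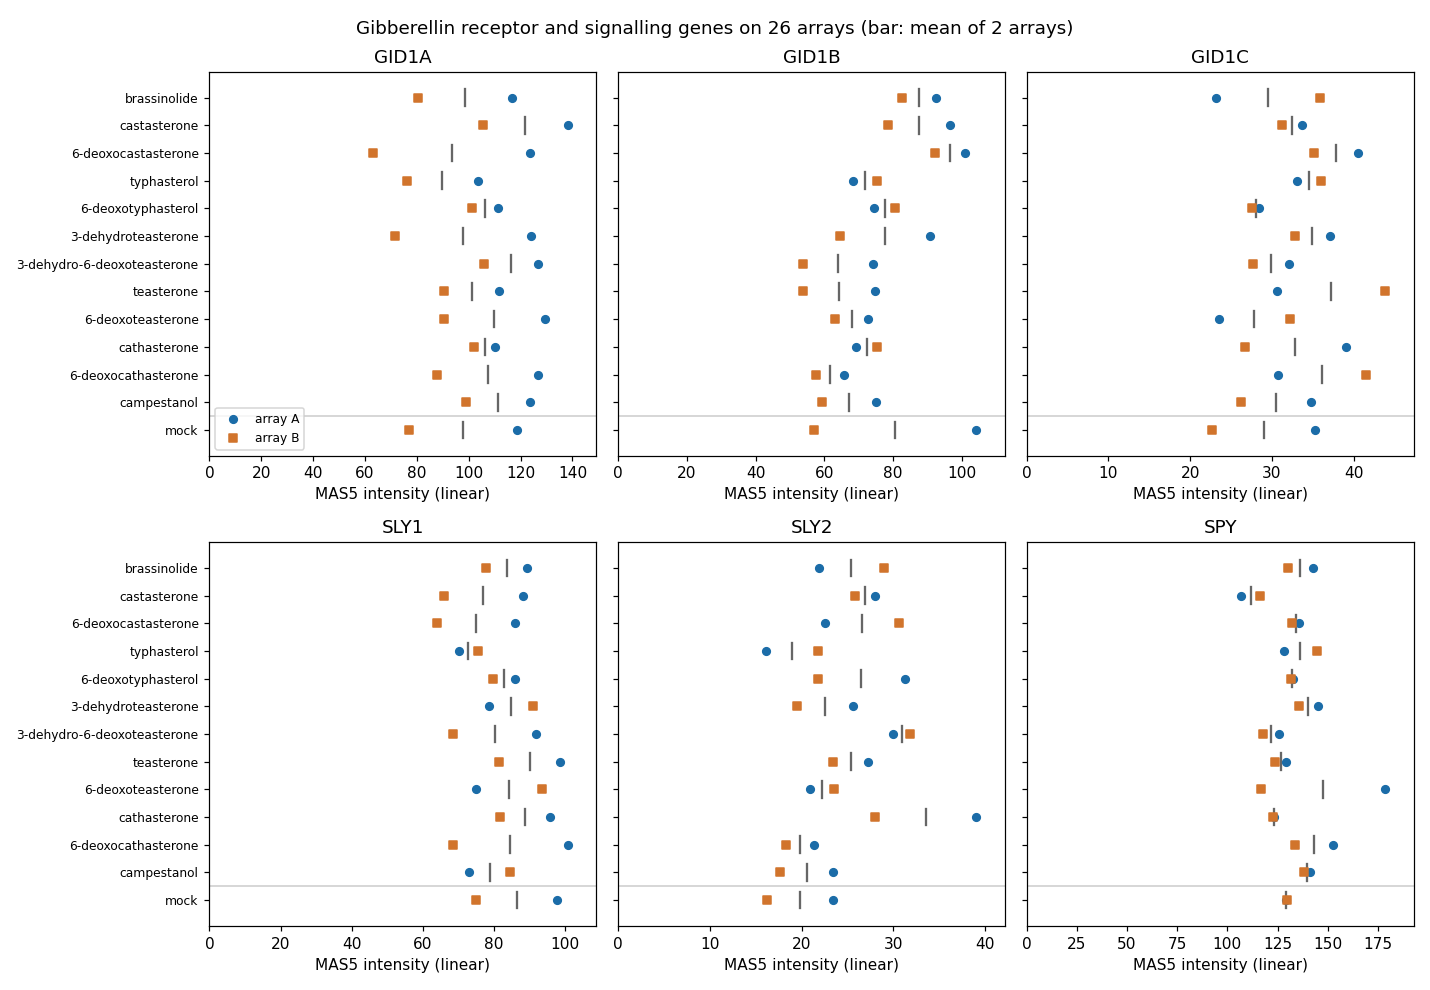
MAS5 intensity (linear, x axis from 0) of each gene on the 26 arrays, by group down the page with mock at the bottom. Blue circles are array A, orange squares array B, and a grey bar the mean of the 2 arrays. GID1A is higher on array A in all 13 groups, the mock arrays of GID1B lie at 104.2 and 57.15, and the cathasterone arrays of SLY2 reach 39.0.

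GID1A, a gibberellin receptor, varied 2.19-fold between its lowest and highest array, and in every group its array A was the higher of the pair. It read 116.5 on array A and 80.5 on array B after brassinolide, 138.1 and 105.5 after castasterone, 123.7 and 63.0 after 6-deoxocastasterone, and 103.5 and 76.1 after typhasterol. It read 111.3 and 101.3 after 6-deoxotyphasterol, 123.9 and 71.4 after 3-dehydroteasterone, 126.7 and 105.7 after 3-dehydro-6-deoxoteasterone, and 111.8 and 90.5 after teasterone. The remaining pairs were 129.3 and 90.3 after 6-deoxoteasterone, 110.3 and 101.9 after cathasterone, 126.9 and 87.6 after 6-deoxocathasterone, 123.7 and 98.8 after campestanol, and 118.6 and 77.1 in mock. Every compound's arrays overlapped the interval between the mock arrays. Overlap of arrays, here and for the genes below, was not compared with all tested probe sets and is not read as a result. Castasterone had the highest mean, 121.8 ± 23.1 (SD, n = 2), against 97.8 ± 29.4 in mock (SD, n = 2). That change was 0.32 on the log2 scale, with a 95% interval of -0.33 to 0.97 and an adjusted p of 0.810 in limma. This interval is widened by the shift between arrays A and B. With the letter in the fit the estimate was the same, its SE was 0.17 in place of 0.31, and the adjusted p was 0.357 in limma. The other 11 changes lay between -0.11 and 0.26.

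GID1B, the second receptor gene, showed its 3 highest group means after brassinolide, castasterone and 6-deoxocastasterone. The arrays read 92.6 and 82.5 after brassinolide, 96.6 and 78.5 after castasterone, and 100.8 and 92.2 after 6-deoxocastasterone. All other compound groups were lower on average, and only 3-dehydroteasterone (90.8 and 64.6) and 6-deoxotyphasterol (74.4 and 80.6) had an array within the range of those 6. Typhasterol arrays read 68.2 and 75.3, 3-dehydro-6-deoxoteasterone arrays 74.2 and 53.7, teasterone arrays 74.7 and 53.8, and 6-deoxoteasterone arrays 72.8 and 63.1. Cathasterone arrays read 69.2 and 75.4, 6-deoxocathasterone arrays 65.8 and 57.6, and campestanol arrays 75.1 and 59.5. The mock arrays, at 104.2 and 57.15, spanned nearly the whole range of the gene, so every compound's pair of arrays overlapped the mock pair. Group means were 96.6 ± 6.08 after 6-deoxocastasterone, the highest, 61.7 ± 5.78 after 6-deoxocathasterone, the lowest, and 80.7 ± 33.3 in mock (SD, n = 2 each). The change against mock was 0.30 after 6-deoxocastasterone (95% interval -0.20 to 0.80) and -0.31 after 6-deoxocathasterone (-0.81 to 0.20), with adjusted p of 0.841 and 1.00 in limma.

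GID1C, the third receptor gene, had its highest mean after 6-deoxocastasterone and its lowest after 6-deoxoteasterone. Its arrays read 23.1 and 35.9 after brassinolide, 33.7 and 31.2 after castasterone, 40.5 and 35.1 after 6-deoxocastasterone, and 33.1 and 36.0 after typhasterol. They read 28.5 and 27.5 after 6-deoxotyphasterol, 37.1 and 32.8 after 3-dehydroteasterone, 32.1 and 27.7 after 3-dehydro-6-deoxoteasterone, and 30.5 and 43.8 after teasterone. They read 23.5 and 32.2 after 6-deoxoteasterone, 39.1 and 26.6 after cathasterone, 30.7 and 41.5 after 6-deoxocathasterone, 34.8 and 26.2 after campestanol, and 35.3 and 22.7 in mock. No compound's pair of arrays lay wholly outside the mock pair, which is not read as absence of change. Of the 12 estimates 10 were above 0, the highest being 0.35 after 6-deoxocastasterone (95% interval -0.17 to 0.88, adjusted p 0.799 in limma).

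SLY1, the F-box gene of the DELLA-degrading ligase, had a narrow range, 63.9 to 100.7 over all 26 arrays. Its arrays read 89.4 and 77.9 after brassinolide, 88.0 and 66.0 after castasterone, 85.9 and 63.9 after 6-deoxocastasterone, and 70.2 and 75.5 after typhasterol. They read 86.0 and 79.6 after 6-deoxotyphasterol, 78.7 and 91.0 after 3-dehydroteasterone, 91.9 and 68.6 after 3-dehydro-6-deoxoteasterone, and 98.5 and 81.5 after teasterone. They read 75.1 and 93.7 after 6-deoxoteasterone, 95.9 and 81.8 after cathasterone, 100.7 and 68.5 after 6-deoxocathasterone, 73.1 and 84.6 after campestanol, and 97.8 and 75.0 in mock. All 12 compound pairs overlapped the mock pair, which is likewise not read as absence of change. The estimates ran from -0.22 after typhasterol to 0.06 after teasterone, and 10 of the 12 were below 0. With a standard error of 0.22 and intervals reaching from -0.68 to 0.52, no direction was called.

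SLY2, the homologue of SLY1, held both of the changes against mock that passed an unadjusted p of 0.05. After cathasterone it read 39.0 and 28.0, and after 3-dehydro-6-deoxoteasterone 30.01 and 31.87, against 23.4 and 16.3 in mock. Both compounds' arrays lay above both mock arrays, as did those of castasterone and teasterone, so this does not set the 2 apart. Mean intensity was 33.5 ± 7.78 after cathasterone and 30.9 ± 1.32 after 3-dehydro-6-deoxoteasterone, against 19.8 ± 5.05 in mock (SD, n = 2 each). The changes were 0.63 ± 0.24 (estimate ± SE, 95% interval 0.13 to 1.14) and 0.55 ± 0.24 (0.04 to 1.05) on the log2 scale, with adjusted p of 1.00 and 0.717 over all tested probe sets in limma. Without array A of cathasterone its estimate was 0.43, and without mock array B the 2 estimates were 0.42 and 0.34. Leaving out mock array A instead raised both, and leaving out array B of cathasterone raised the cathasterone estimate. The estimate for 3-dehydro-6-deoxoteasterone was 0.58 without its array A and 0.51 without its array B. Within a letter, cathasterone minus mock was 0.632 for A and 0.635 for B. The values for 3-dehydro-6-deoxoteasterone were 0.30 and 0.79, each from 1 array against 1.

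The other compounds gave SLY2 21.9 and 28.9 (brassinolide), 28.0 and 25.8 (castasterone), 22.6 and 30.6 (6-deoxocastasterone), and 16.1 and 21.8 (typhasterol). The values were 31.2 and 21.8 after 6-deoxotyphasterol, 25.6 and 19.5 after 3-dehydroteasterone, 27.3 and 23.5 after teasterone, and 21.0 and 23.5 after 6-deoxoteasterone. After 6-deoxocathasterone it read 21.3 and 18.3, and after campestanol 23.5 and 17.7. Typhasterol, 6-deoxocathasterone and campestanol lay within 0.05 of mock on the log2 scale. Of the 12 estimates 11 were above 0. They share the 2 mock arrays, and mock array B, at 16.3, was the lowest of the 13 B arrays for this gene.

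SPY, the negative regulator, had the smallest residual SD of the 6 genes, the spread between the 2 arrays of a group, while SLY1 varied less over groups and over all arrays. It read 142.6 and 130.0 after brassinolide, 106.9 and 116.4 after castasterone, 135.6 and 132.4 after 6-deoxocastasterone, and 128.3 and 144.6 after typhasterol. It read 132.5 and 131.5 after 6-deoxotyphasterol, 145.2 and 135.5 after 3-dehydroteasterone, 125.5 and 117.7 after 3-dehydro-6-deoxoteasterone, and 129.3 and 124.0 after teasterone. It read 178.5 and 116.7 after 6-deoxoteasterone, 123.4 and 122.7 after cathasterone, 152.8 and 133.5 after 6-deoxocathasterone, 141.2 and 138.1 after campestanol, and 129.1 and 129.5 in mock. Array A of 6-deoxoteasterone stood apart from all others. The mock arrays differed by so little (SD 0.274) that most compounds had both arrays on 1 side of them, which is not read as a change. SPY's largest departures were still small, -0.20 after castasterone (95% interval -0.54 to 0.13) and 0.15 after 6-deoxoteasterone (-0.18 to 0.49), with adjusted p of 0.741 and 1 in limma.

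With the 13 group means of a gene sorted, no step between neighbours exceeded its residual SD on the log2 scale. Sorting keeps such steps small, and the residual SD is that of single arrays. The steps therefore do not show whether groups differ. The widest step was 0.173 for SLY2, between 3-dehydro-6-deoxoteasterone (30.9) and castasterone (26.9), against a residual SD of 0.216. For GID1B it was 0.160, between castasterone (87.6) and 6-deoxotyphasterol (77.5), against 0.247. The widest steps of the other 4 genes were 0.055 to 0.118. For SPY and SLY2 the arrays of some neighbours did not overlap, which was not compared with all tested probe sets. From the lowest to the highest group the means spanned 0.68 for SLY2, 0.61 for GID1B, 0.43 for GID1A, 0.39 for GID1C, 0.36 for SPY and 0.28 for SLY1.

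**Figure D2:**
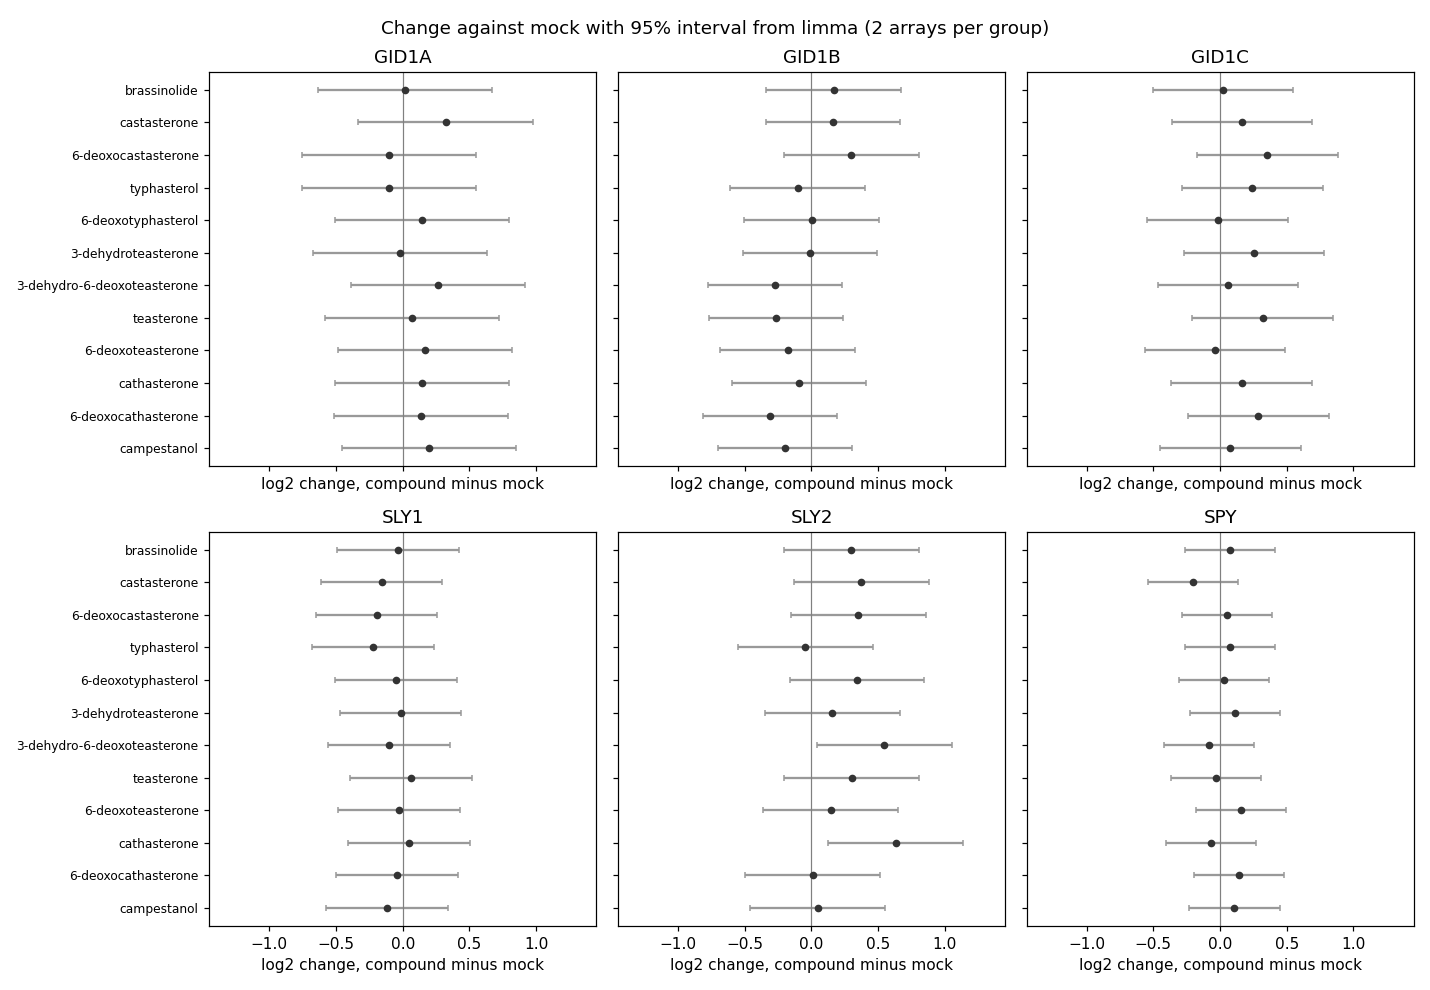
log2 change of each gene, compound minus mock (x axis), with the 95% interval from limma as a bar, for the 12 compounds down the page. Only 2 of 72 intervals exclude 0, both of them for SLY2, after cathasterone (0.63) and after 3-dehydro-6-deoxoteasterone (0.55), and 70 of 72 lie within -1 and 1.

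How large a change could have been called depended on the gene and on the fit, which leaves any shift between the array letters in the residual. Of the 72 intervals 70 lay within 1 log2 unit of mock on both sides, and the exceptions were the 2 of SLY2 just described. The smallest change that limma would have called after brassinolide was 0.61 for SPY and 1.18 for GID1A, with the other 4 genes between. For 6-deoxoteasterone, with 0.165% of probe sets called, it was 0.81 for SPY and 1.57 for GID1A. In this fit GID1A had the largest residual SD of the set, 0.346, above that of 74.8% of tested probe sets, and SPY the smallest, 0.134, above that of 5.81%. The GID1A value includes its shift between the letters, and its limits were lower with the letter in the fit (0.58 in place of 1.18 after brassinolide). The median absolute change against mock over the 6 genes and 12 compounds was 0.136, beside 0.165 over all tested probe sets. After brassinolide alone the medians were 0.054 for the 6 genes and 0.193 for all.

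Compounds were next compared at the same dose of 1 µM and the same 3 h. In 4 pairs the compounds differ in the ketone at C-6, and in 7 pairs they are successive steps of the pathway within a branch. Brassinolide, castasterone and campestanol were given at other doses and enter no pair. Of the 66 differences (11 pairs, 6 genes) 0 were called, and 1 passed an unadjusted p of 0.05, beside 3.34% of the same comparisons over all tested probe sets. The adjusted threshold called 0.00568% of tested probe sets between 6-deoxocastasterone and 6-deoxotyphasterol, which is 1 probe set, and 0% in each of the other 10 pairs. All p-values were adjusted over every tested probe set within a pair.

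The single difference past the unadjusted threshold was SLY2 between cathasterone and its 6-deoxo form. SLY2 read 39.0 and 28.0 after cathasterone, against 21.3 and 18.3 after 6-deoxocathasterone, so the arrays did not overlap. The difference was 0.62 ± 0.24 on the log2 scale (estimate ± SE, 95% interval 0.12 to 1.13), with an adjusted p of 1.00 in limma. In the pair of typhasterol and 6-deoxotyphasterol the sign was the opposite, -0.39 (-0.90 to 0.12), and likewise between 3-dehydroteasterone and 3-dehydro-6-deoxoteasterone, -0.39 (-0.90 to 0.11). Teasterone minus 6-deoxoteasterone gave 0.16 (-0.35 to 0.66). A moderated F test of whether the C-6 ketone effect is unequal among the 4 pairs, added after the values were seen, gave SLY2 an unadjusted p of 0.0213 and an adjusted p of 1 in limma. Unadjusted p-values of the other 5 genes were 0.262 to 0.905.

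Between the receptors the C-6 pairs gave no call either. GID1C had its largest C-6 difference between teasterone and 6-deoxoteasterone, 0.36 (95% interval -0.17 to 0.88), with arrays of 30.5 and 43.8 after teasterone and 23.5 and 32.2 after 6-deoxoteasterone, which overlapped. GID1B differed most between 3-dehydroteasterone and its 6-deoxo form, 0.26 (-0.24 to 0.76), and GID1A in the same pair by -0.28 (-0.94 to 0.37). Averaged over the 4 pairs, C-6 ketones minus 6-deoxo forms, the differences were -0.16 for GID1A (-0.48 to 0.17), 0.07 for GID1B (-0.18 to 0.32) and 0.17 for GID1C (-0.09 to 0.44). The same average was 0.02 for SLY1 (-0.21 to 0.25), -0.00075 for SLY2 (-0.25 to 0.25) and -0.04 for SPY (-0.21 to 0.13). Over the 6 genes these intervals reached from -0.48 to 0.44 on the log2 scale.

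Successive steps were as small. Adding the C-2 hydroxyl, from 6-deoxotyphasterol to 6-deoxocastasterone, gave product-minus-substrate differences of 0.30 for GID1B (95% interval -0.20 to 0.80), 0.37 for GID1C (-0.15 to 0.90) and -0.25 for GID1A (-0.90 to 0.40). GID1B read 100.8 and 92.2 after 6-deoxocastasterone, against 74.4 and 80.6 after 6-deoxotyphasterol. GID1C read 40.5 and 35.1 after 6-deoxocastasterone, against 28.5 and 27.5 after 6-deoxotyphasterol. Both genes were thus higher on both arrays after the product, with no overlap, yet uncalled (adjusted p 1.00 in limma for each). Adding the C-23 hydroxyl gave SLY2 -0.33 from cathasterone to teasterone (-0.84 to 0.17) and 0.14 from 6-deoxocathasterone to 6-deoxoteasterone (-0.37 to 0.64). The largest step difference was 0.40 for SLY2, from 6-deoxoteasterone to 3-dehydro-6-deoxoteasterone (-0.10 to 0.91), also uncalled. Over all 66 differences 65 intervals lay within -1 and 1. Overlap of arrays was not compared with all tested probe sets and is not read as a result.

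**Figure D3:**
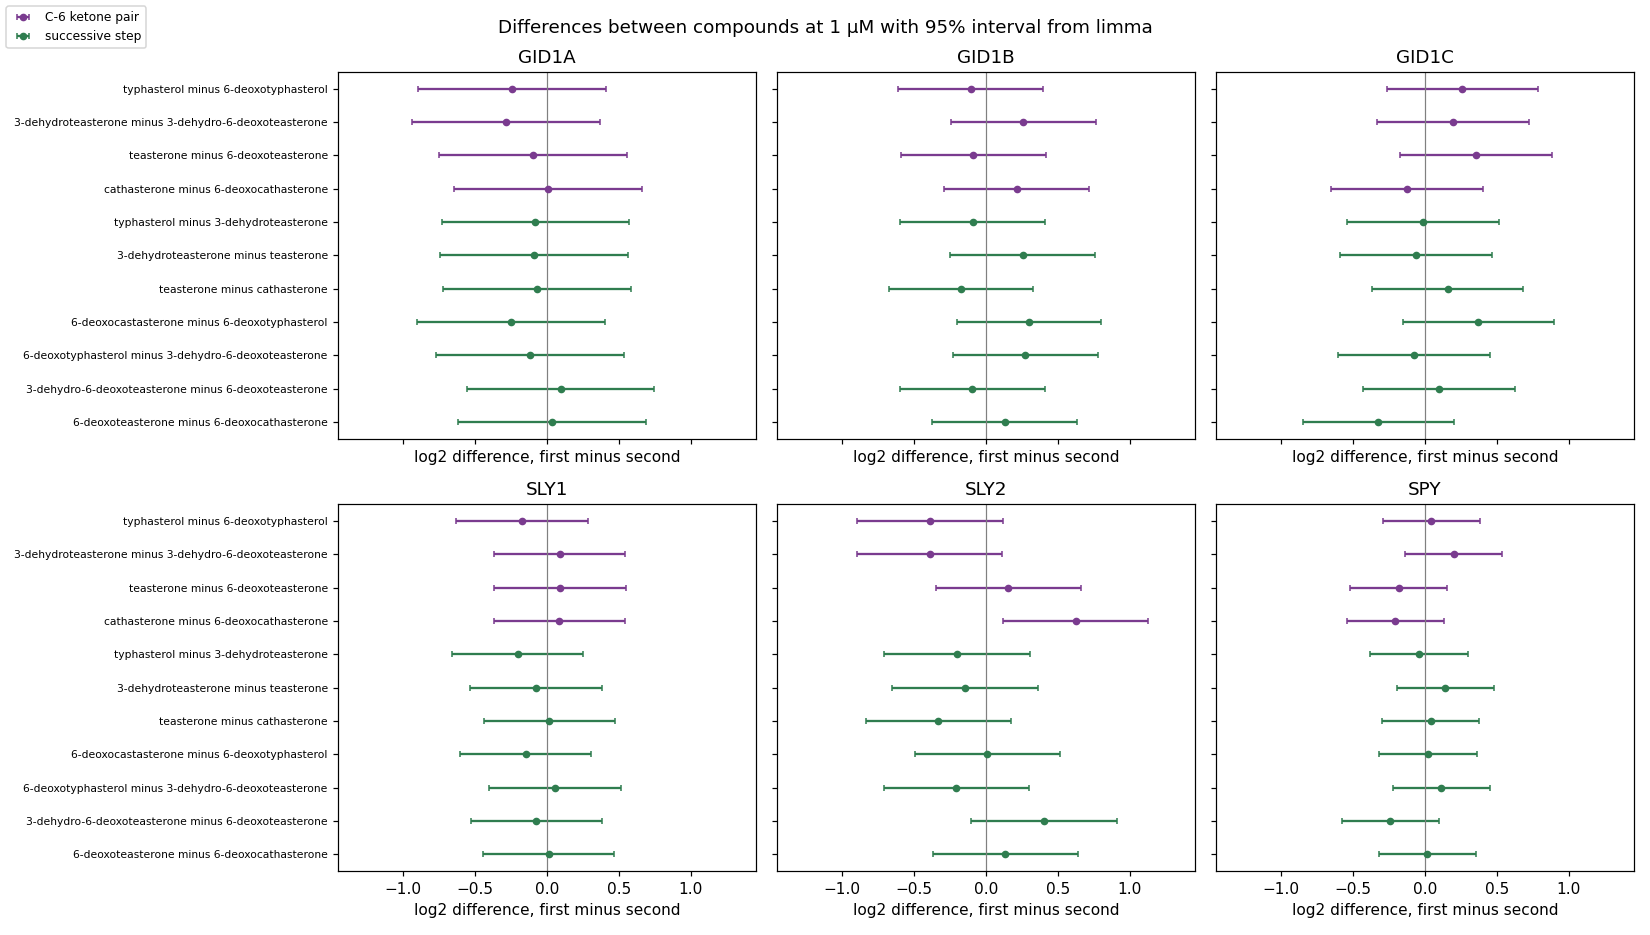
log2 difference between compounds given at 1 µM, first-named minus second-named (x axis), with the 95% interval from limma as a bar. The 4 purple rows differ in the C-6 ketone and the 7 green rows are successive steps. Of 66 intervals 1 excludes 0, that of SLY2 for cathasterone minus 6-deoxocathasterone (0.62).

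Averaging over compounds narrowed the intervals without bringing a call. The mean of all 12 compounds minus mock, for which 1.39% of tested probe sets were called, was 0.10 for GID1A (95% interval -0.38 to 0.58), -0.07 for GID1B (-0.44 to 0.30) and 0.16 for GID1C (-0.23 to 0.54). It was -0.07 for SLY1 (-0.41 to 0.26), 0.26 for SLY2 (-0.11 to 0.64) and 0.03 for SPY (-0.22 to 0.28). The mean of the 9 compounds with hydroxyls at both C-22 and C-23 minus mock called 2.50% of tested probe sets and 0 of the 6 genes. Its highest value was 0.27 for SLY2 (-0.10 to 0.65, adjusted p 0.798 in limma). At 1 µM, the 7 compounds with both hydroxyls minus cathasterone and 6-deoxocathasterone, which lack the C-23 hydroxyl, called 1.05% of tested probe sets. In that comparison the 6 genes lay between -0.08 and 0.12. For the mean of the C-6 pairs 0% of tested probe sets were called. Across the 4 averages 0 of 24 values were called and 0 passed an unadjusted p of 0.05, beside 7.16% over all tested probe sets.

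Of the comparisons made, only that of the array letters called any of the 6 genes. In a comparison added after the values were seen, array A minus array B over the 13 groups called 35.8% of tested probe sets, 2478 higher and 3819 lower on array A, in limma. GID1A was higher on array A in 13 of 13 groups, averaging 120.3 ± 9.44 on the A arrays and 88.5 ± 14.0 on the B arrays (SD, n = 13 each). The difference was 0.44 ± 0.07 on the log2 scale (estimate ± SE, adjusted p 3.949e-05). GID1B was higher on array A in 10 of 13 groups, averaging 81.5 ± 13.5 on A and 68.8 ± 12.6 on B, a difference of 0.23 ± 0.07 (adjusted p 0.0181). The labels do not say what the letters stand for.

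The other 4 genes were not called between the letters. SLY1 differed by 0.16 (adjusted p 0.105 in limma) and was higher on array A in 9 of 13 groups, SPY by 0.07 (0.348) in 10, SLY2 by 0.09 (0.514) in 8, and GID1C by 0.01 (0.938) in 8. The sign of the GID1C value turned under some settings, down to -0.03.

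**Figure D4:**
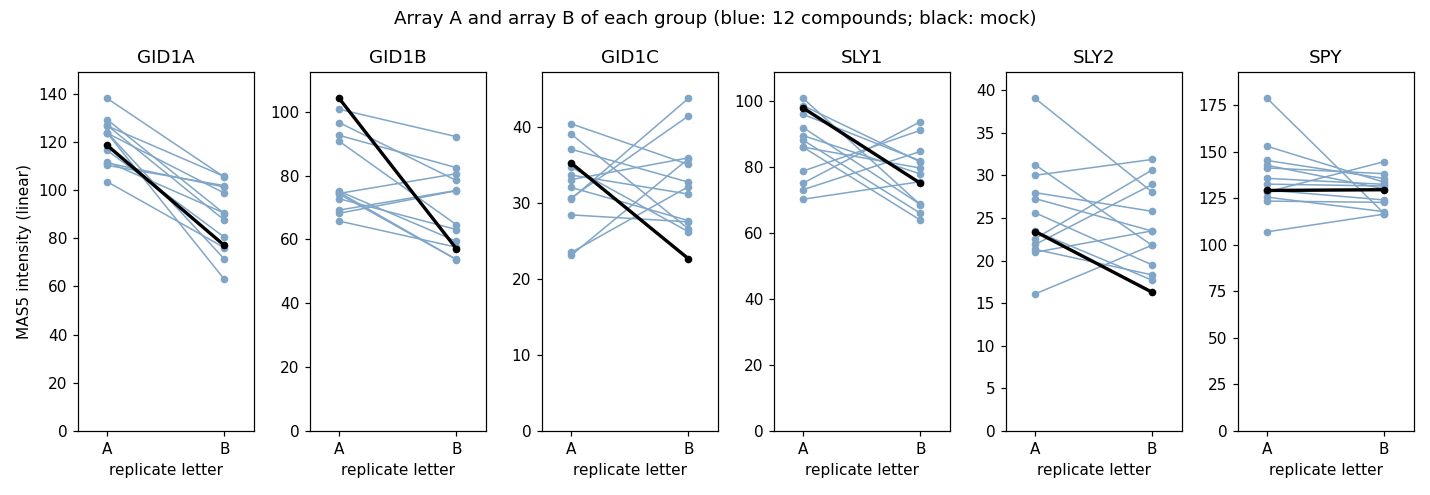
MAS5 intensity (linear, y axis from 0) on array A (left) and array B (right) of each group, joined by a line, for the 6 genes. Blue lines are the 12 compounds and the black line is mock. For GID1A all 13 groups are lower on B than on A, and the mock line of GID1B, at 104.2 on A and 57.15 on B, is steeper than any compound's.

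Read within a letter, the compounds sat on different sides of mock. For GID1B, 0 of 12 compounds were above mock among the A arrays, where mock was the highest of 13, and 10 of 12 were above mock among the B arrays. The mean change was -0.38 within A and 0.25 within B. For GID1C, 3 of 12 compounds were above mock within A and 12 of 12 within B, where mock at 22.7 was the lowest of 13, with mean changes of -0.13 and 0.44. For SLY2, 7 of 12 compounds were above mock within A and 12 of 12 within B, with mean changes of 0.08 and 0.44. For GID1A the means were 0.02 and 0.19, for SLY1 -0.18 and 0.04, and for SPY 0.07 and -0.01. In all, 31 of the 72 changes against mock had the same sign within A and within B, and 31 of the 66 differences between compounds did. The changes against mock share 1 mock array within each letter.

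With mock array A left out, the mean of the 12 compounds minus mock was 0.34 for GID1B, 0.40 for GID1A, 0.43 for GID1C, 0.11 for SLY1, 0.47 for SLY2 and 0.03 for SPY. With mock array B left out it was -0.47 for GID1B, -0.19 for GID1A, -0.11 for GID1C, -0.25 for SLY1, 0.05 for SLY2 and 0.03 for SPY. None of these 12 values was called. The sign for 4 of the 6 genes thus hung on which mock array was kept, while SLY2 and SPY stayed above 0.

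No common order of the group means was seen across the 6 genes. Since none of them differed among groups in the F test, their correlations cannot show whether they move together. Over the 13 groups, the Pearson correlation between genes on the log2 scale ran from -0.64 for SLY2 with SPY to 0.39 for GID1A with SLY2. Among the receptors it was -0.35 for GID1A with GID1B, -0.40 for GID1A with GID1C and 0.04 for GID1B with GID1C, and for the F-box pair it was 0.19. These are descriptions over 13 means that share arrays, letters and scaling.

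Among 9860 other tested probe sets naming 1 gene, those most like each gene over the 13 group means were also listed. The closest to GID1A was CYP71B36, a cytochrome P450 gene (r = 0.90), followed by AT3G56280 (0.81) and AT1G33840 (0.80). The mean intensities of CYP71B36 and AT3G56280 were 10.6 and 10.3, near the minimum of 10 for testing. GID1B was closest to AT2G20560 (0.90), AT1G30890 (0.84) and AT4G12640 (0.84), and GID1C to AT3G22800 (0.93), AT5G22730 (0.90) and AT5G05800 (0.88). SLY1 was closest to AT5G09820 (0.89), AT1G20540 (0.88) and AT5G13140 (0.87). SLY2 was closest to AT4G19200 (0.92), AT4G24780 (0.86) and AT5G58930 (0.85), and SPY to AT3G01060 (0.89), AT4G22820 (0.85) and AT1G33110 (0.82). None of these 18 differed among the 13 groups in the F test, with the lowest adjusted p at 0.368 for AT3G22800. Picked as the highest of 9860 for each gene, these correlations are not read as a shared response.

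Other genes of the gibberellin pathway were taken from 7 lists holding 71 genes, of which 15 had a named probe set and 13 were tested. The lists of hormone synthesis (14 genes) and of the DELLA repressors (5 genes) had no probe set that names them alone and are not analysed here. After brassinolide 2 of the 13 were called higher and 1 lower, beside 2.02% and 0.557% of all tested probe sets. Over all compounds 4 of the 13 were called at least once, with 5 calls higher and 4 lower, beside 3.41% of all tested probe sets called at least once. Nothing particular to the lists is read from these counts.

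The gene of the inactivation list that was measured, AT5G58660, known in the annotation by its locus only, was called lower after brassinolide (10.9 and 11.7), typhasterol (9.9 and 10.5) and 3-dehydroteasterone (9.7 and 13.7), against 48.0 and 26.9 in mock. Its log2 changes were -1.33, -1.44 and -1.31, with adjusted p of 0.0130, 0.00891 and 0.0234 in limma. All 6 compound arrays lay below both mock arrays. Each of the 3 calls was lost when mock array A or either array of the compound was left out, and in a fit to the 4 arrays alone.

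GTR1, a membrane transporter known to carry glucosinolates and gibberellin, was called higher after brassinolide (211.2 and 208.3) and castasterone (203.9 and 197.1), against 96.9 and 113.7 in mock. The changes were 0.97 and 0.90 (adjusted p 0.0215 and 0.0349 in limma), and each was lost when any of its 4 arrays was left out. The castasterone call was also lost without the intensity trend and in a fit to the 4 arrays alone. Of the other measured transporters, AT1G68570 (NPF3.1) and the sugar and gibberellin carrier SWEET13 had changes of -0.35 to 0.09 and -0.33 to 0.29 with no call.

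In the list of GASA peptides, small secreted proteins of which several are induced by gibberellin, 5 of 14 genes were tested and 2 called. AT2G14900 was called higher after brassinolide (530.2 and 475.2), castasterone (385.8 and 443.8) and typhasterol (388.9 and 507.9), against 185.2 and 147.6 in mock. Its log2 changes were 1.57, 1.30 and 1.40 (adjusted p 0.00279, 0.0126 and 0.00853 in limma), and all 3 calls were lost without mock array B. The castasterone call was also lost without either castasterone array, and the typhasterol call without typhasterol array B. AT2G18420 was called lower after 6-deoxotyphasterol (1.55 and 0.794, against 14.8 and 15.3 in mock; adjusted p 0.0226), a call lost in 6 of its 12 alternatives. At intensities this near 0 its log2 change has no fixed size, -1.70 here and -2.91 to -0.73 over the alternatives. AT2G39540, AT1G22690 and AT5G59845 were not called.

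Of the 16 listed DELLA partners and targets, 3 were measured and none of these 3 was called. XERICO, a RING-type gene repeatedly described as a DELLA target, gave 244.1 and 167.7 after 3-dehydroteasterone, its highest estimate, against 134.8 and 95.1 in mock. The change was 0.81, and the lowest adjusted p over the 12 compounds was 0.235 in limma, after castasterone. SHI lay between 0.03 and 0.46 and SPT, a basic helix-loop-helix gene, between -0.25 and 0.20. SEC, the homologue of SPY that attaches a different sugar to DELLA proteins, lay between 0.09 and 0.40 with a lowest adjusted p of 0.506.

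**Figure D5:**
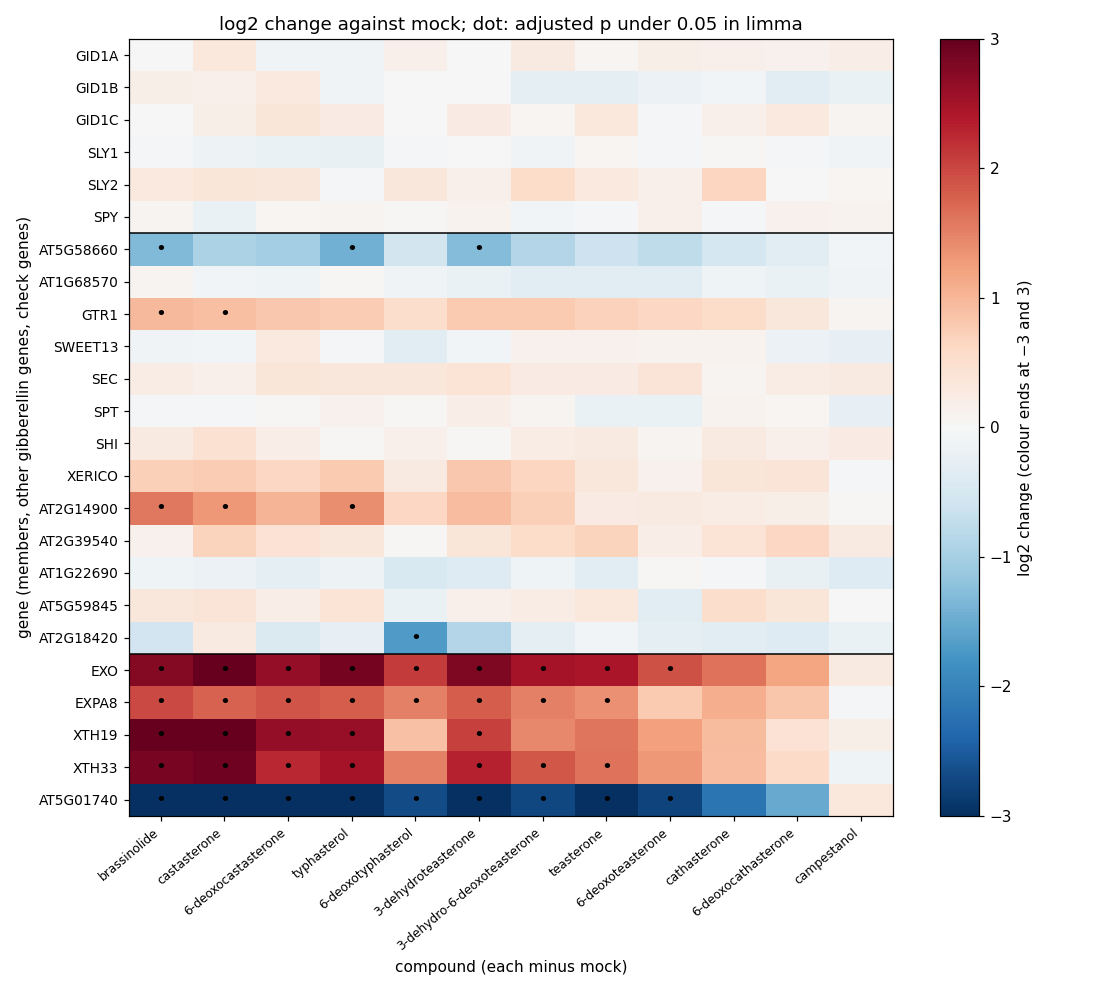
log2 change against mock (colour, blue lower and red higher, ending at -3 and 3) for the 6 receptor and signalling genes (top), 13 other gibberellin genes (middle) and 5 genes that check the treatment (bottom), by compound. A black dot marks an adjusted p under 0.05 in limma. The top block holds 0 dots, the middle block 9 and the bottom block 38. The check genes were chosen with earlier results of these data known, so their dots are not an independent contrast.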

How the data were processed

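RNA of 26 seedling samples was hybridised to ATH1 arrays, 2 per group. What the authors deposited is a linear intensity per probe set, from MAS5 per the submitters' processing notes, with no version, settings or detection calls stated in those sources. Trimmed means of 99.96 to 99.97 on every array show that the deposited intensities carry a common scale, so no further normalization was applied; no depth exists for arrays, and the number of arrays limits precision. Array medians were 33.9 to 41.0.

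After 64 controls were left out, probe sets with a mean of at least 10 (17606) were tested as log2(intensity + 5), a scale on which dim probe sets change too little. All 26 arrays entered 1 fit in limma 3.58.1 (R 4.3.3) with 1 coefficient per group, an intensity trend and Benjamini-Hochberg adjustment. Calls needed an adjusted p under 0.05. The fit was tested on simulated data. Groups came from the treatment labels, and genes from the platform table and RefSeq names.

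Named were the 6 genes, the 3 probe sets most correlated with each, up to 4 called genes per list, and otherwise the list member changed most after brassinolide; other measured list genes were named after their values were seen. Genes and lists were chosen with earlier results of these data known. Pseudocount, filter, scaling, trend, replicate block, single arrays left out and fits to 4 arrays were varied. The comparison of the letters, the within-letter values and the test of unequal C-6 effects were added after the data were seen.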

Additional observations from a re-analysis of the deposited data

How the results depend on the processing

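The counts of calls for the 6 genes, against mock, between compounds at 1 µM, in the averages and in the F test, were 0 under every alternative run in limma. At an unadjusted p under 0.05 the count against mock was 2, with 0 to 2 under other settings and 1 to 5 on leaving out 1 array; the highest came without either mock array. Between compounds it was 1, with 0 to 3 on leaving out 1 array, the highest without array B of 6-deoxoteasterone. With the letter as a replicate block, 0 member values were called, the lowest adjusted p was 0.357, and 917 probe sets were called after brassinolide, against 454 without it. Same-letter arrays deviated together, with a correlation above 0.1 in 76 of 78 pairs of groups (median 0.32, lowest -0.02). Since not all 78 passed and the labels name no shared source, the block stayed an alternative. With it the residual SD of GID1A was 0.165, its castasterone change had an unadjusted p of 0.0720, and the smallest change called after brassinolide was 0.50 (SPY) to 0.85 (GID1C). Of 1983 recomputed values of the 6 genes, 172 changed sign, 146 of them on leaving out 1 array and 24 under quantile normalization or median centring. A mean of at least 30 left SLY2 untested. Adding 1 in place of 5 gave SLY2 after cathasterone 0.73, and adding 20 gave 0.42. GID1A and GID1B kept their calls between the letters in all 20 alternatives, and SLY1 was called there in 3 of 20. With 2 arrays a group and no block, a change under 0.61 on the log2 scale could not be called for any of the 6 genes in a single compound.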
